A study of Mus musculus with 32 samples.

Results

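Lung metastases were compared with adenomas, the benign primary lesion, in a mouse model of mammary cancer in which regions of single-coloured, clonal tumour cells were cut from tissue sections by laser. The comparison took the 7 metastasis libraries and the 8 adenoma libraries, chosen by the stage named in the labels, out of 32 libraries in all, and every gene of the count table was measured. Poly-adenylated RNA of each region was amplified by the Smart-seq2 chemistry and sequenced after Nextera XT library preparation. The other 17 libraries (normal gland, hyperplasia and carcinoma) entered the model only to share its estimate of the spread, and are given as values where they place a level.

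Both groups came from female mice of the genotype MMTV-PyMT; R26-CBW; K8-CreERT2, given 5 mg of tamoxifen when 5 weeks old. MMTV-PyMT drives the polyoma middle T oncogene in mammary epithelium from a viral promoter, K8-CreERT2 is a tamoxifen-activated recombinase under the keratin 8 promoter, which is active in luminal epithelium, and R26-CBW is the multicolour Confetti reporter. Metastases and adenomas therefore shared the oncogene, the reporter and the induction, and neither group is a tamoxifen-free or oncogene-free control. All stages were collected at the end point, when the tumour load had reached its permitted maximum, and the age at collection is not stated in the labels. The metastasis regions comprised 4 at the border of the lung and 3 in its centre, of which 5 were red, 1 was yellow and 1 was green. The adenoma regions comprised 3 at the tumour border, 3 in the tumour core and 2 not surrounded by tumour, of which 4 were red, 3 were yellow and 1 was green. Libraries are named here by stage and by the region number in their label. The design text gives n = 3 without saying of what, and the labels do not tie regions to animals. If it counts animals, regions within each group share animals, and the p-values below, which treat each region as a replicate, can be too small. Whether the 2 groups share animals is not stated, and no p-value here accounts for it.

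Metastasis libraries held between 5920501 and 15884714 counts and adenoma libraries between 2688611 and 19585351. A metastasis library had 14660 ± 2598 genes with at least 1 count (SD, n = 7) and an adenoma library 13728 ± 1743 (n = 8), a difference that did not pass a 2-sided exact permutation test over regions (p = 0.418, 6435 splits). Metastasis 42 (10383 genes) and adenoma 51 (10769 genes) had the fewest. A single gene identifier without a RefSeq symbol took 8.15% to 78.9% of the counts in metastases and 5.20% to 57.5% in adenomas. Keratin 8, the gene whose promoter drives the recombinase, lay between 484 and 749 CPM in metastases and between 388 and 1275 CPM in adenomas, and was detected in every library of both groups. CPM, a count divided by the library total in units of 1e6 counts, are here scaled to the library size after trimmed-mean normalisation, and levels are compared for 1 gene between libraries, never between genes.

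As background, a carcinoma that seeds the lung grows among the alveoli, whose lining is made of flat type 1 cells for gas exchange and cuboidal type 2 cells that secrete surfactant, the lipid and protein film that keeps alveoli open. The surfactant proteins SP-A, SP-B, SP-C and SP-D are encoded by Sftpa1, Sftpb, Sftpc and Sftpd, and Sftpc is the usual defining marker of type 2 cells. Conducting airways carry club cells, marked by the secretoglobin Scgb1a1, and lung capillaries and resident leukocytes lie within micrometres of any metastasis. Adenomas of this model arise in the mammary gland, whose fat pad holds fibroblasts, adipocytes and leukocytes. By the labels, only 2 of the 8 adenoma regions here were not surrounded by tumour.

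Of 19907 genes tested, 3 passed an adjusted p of 0.05 (edgeR quasi-likelihood test, Benjamini-Hochberg adjustment over all genes), which is 0.0151% of them. All 3 were surfactant protein genes and were higher in metastases: Sftpc, Sftpb and Sftpa1. No gene passed in the other direction (0%), and the smallest adjusted p among genes with a lower fitted level in metastases was 0.0643, for the zinc finger gene Zfp791, which is named after its values were seen. At an unadjusted p under 0.05 there were 1692 higher genes (8.50%) and 1250 lower ones (6.28%). DESeq2's Wald test called 395 genes, of which 151 were lower. Its calls of smallest p had fitted log2 changes such as -38.5 for Zcchc18 and 39.5 for 5830418P13Rik. Changes of that size are too large to be ratios of these counts, so its number of calls is given only as a dependence on the tool. Limma with voom and sample weights called 20, of which 3 were lower, so the count of lower genes differed between tools. The 3 surfactant genes were among the calls of each of these tools. Leaving out metastasis 2 or metastasis 40 gave 8 calls, leaving out metastasis 27 gave 6 and leaving out adenoma 48 gave 5, each time with the same 3 genes among them. The median fitted log2 change over all tested genes was 0, and 49.9% of them had a higher fitted level in metastases.

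**Figure D1:**
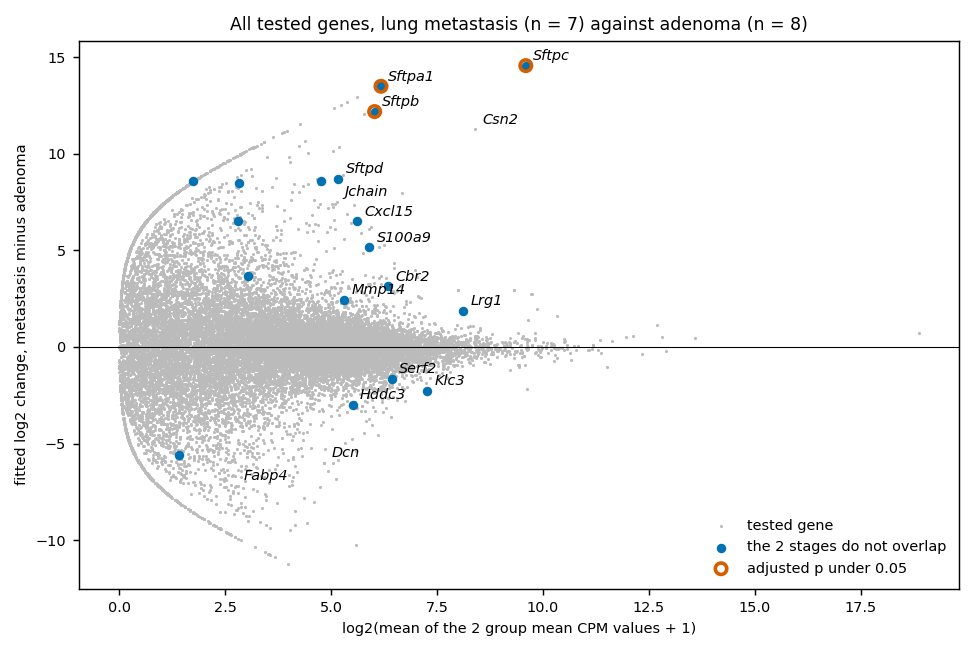
Fitted log2 change of metastasis minus adenoma (vertical axis) against the log2 of the mean of both group means in CPM plus 1 (horizontal axis) for the 19907 tested genes, 1 point per gene. The 3 genes that passed the test, Sftpc, Sftpb and Sftpa1, are ringed at fitted changes of 14.56, 12.18 and 13.49, and no gene below 0 passed.

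Sftpc encodes the hydrophobic surfactant protein SP-C (chromosome 14, 70520941 to 70524081 in GRCm38). In metastases its level was 3687 CPM in region 2, 3461 in 56, 1656 in 40, 957 in 27, 414 in 42, 389 in 57 and 246 in 58. In adenomas it was 0 in 7 libraries and 0.424 CPM in adenoma 36, which amounts to 4 counts in the whole group. The groups did not overlap, and the metastases themselves spanned from 246 to 3687 CPM. The means were 1544 ± 1467 CPM (SD, n = 7) and 0.0530 CPM (n = 8), and the pooled counts gave a ratio of 36449 with a 95% exact interval of 14235 to 133775 that covers counting error only. Sftpc rose by 14.56 on the log2 scale (SE 1.03, edgeR adjusted p = 3.65e-13).

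Sftpb encodes SP-B, which organises surfactant lipids (chromosome 6, 72304610 to 72314373). Its lowest, median and highest levels in metastases were 39.6, 135 and 253 CPM, and the 8 adenomas held 1 count among them, in adenoma 51 (0.285 CPM). Every metastasis lay far above that library. The pooled ratio was 10900.1 with a 95% interval of 1956 to 430577, wide because of the single adenoma count, and the fitted change was 12.18 (SE 1.53, edgeR adjusted p = 7.29e-06). The fitted value of a gene with so few counts in a group depends on the prior count and is not a bound.

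Sftpa1 encodes SP-A, a collectin that binds microbial sugars (chromosome 14, 41131788 to 41136373). Its lowest, median and highest levels in metastases were 11.7, 150.0 and 395 CPM, and no adenoma library held a count. Set against 3 counts over the whole adenoma group, which is what a count of 0 allows, the mean of metastases was at least 3966-fold higher. The test gave a fitted change of 13.49 (SE 1.77, edgeR adjusted p = 4.70e-05).

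Sftpd, the gene of the related collectin SP-D on the same chromosome (41172212 to 41185198), missed the threshold (edgeR adjusted p = 0.0643, log2 change 8.70, SE 1.86). Its metastasis levels ran from 21.7 through a median of 44.9 to 171 CPM, and in adenomas it was 0 in 7 libraries and 1.22 CPM in adenoma 48, with 11 counts in all. The groups again did not overlap. Sftpd passed without adenoma 48 (adjusted p = 0.0230), and with all libraries kept it passed when only the 15 compared libraries were fitted (0.00426), without a count filter (0.0361), by limma with voom (1.84e-07) and by DESeq2 (4.73e-06). It also passed with central metastases alone (0.0468, edgeR).

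The starts of these genes are shown because the surfactant genes were high together in the same libraries. The RefSeq promoter table held entries for Sftpb and Sftpa1, and for Cxcl15, a lung chemokine gene described below, but none was matched for Sftpc or Sftpd. The 250 bases before each start are printed 5′ to 3′ on the plus strand of GRCm38.p6, at chr6:72304360-72304609, chr14:41131538-41131787 and chr5:90794284-90794533. Capitals mark matches on either strand to CTCAAG, the core bound by the lung factor NKX2-1, to TGTTTNC, a forkhead factor core, and to TATAAA, the TATA box.
Sftpb: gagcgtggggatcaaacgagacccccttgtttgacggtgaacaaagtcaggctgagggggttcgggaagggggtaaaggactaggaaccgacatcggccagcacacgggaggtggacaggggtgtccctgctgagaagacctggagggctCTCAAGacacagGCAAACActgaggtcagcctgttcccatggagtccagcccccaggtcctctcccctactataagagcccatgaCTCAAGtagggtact
Sftpa1: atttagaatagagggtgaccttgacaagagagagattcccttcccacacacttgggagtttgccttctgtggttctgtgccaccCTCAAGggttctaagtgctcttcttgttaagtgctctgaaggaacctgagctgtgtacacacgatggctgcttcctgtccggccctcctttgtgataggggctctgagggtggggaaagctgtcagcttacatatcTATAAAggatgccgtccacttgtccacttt
Cxcl15: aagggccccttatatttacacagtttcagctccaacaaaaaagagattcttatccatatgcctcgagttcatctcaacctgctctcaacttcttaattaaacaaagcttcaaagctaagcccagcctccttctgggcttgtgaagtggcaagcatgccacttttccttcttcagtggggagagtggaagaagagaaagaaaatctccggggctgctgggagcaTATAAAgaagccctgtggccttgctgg
CTCAAG occurred at 100 to 95 and at 15 to 10 bases before the start of Sftpb and at 166 to 161 before that of Sftpa1, and it occurs in 13.3% of the 32851 promoters of the table over the same length. TGTTTNC matched the minus strand 88 to 82 bases before Sftpb (17.8% of promoters hold it), and TATAAA lay 30 to 25 bases before Sftpa1 and 27 to 22 before Cxcl15 (12.4% of promoters). The motifs did not overlap each other. A match is a description of letters and shows no binding.

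**Figure D2:**
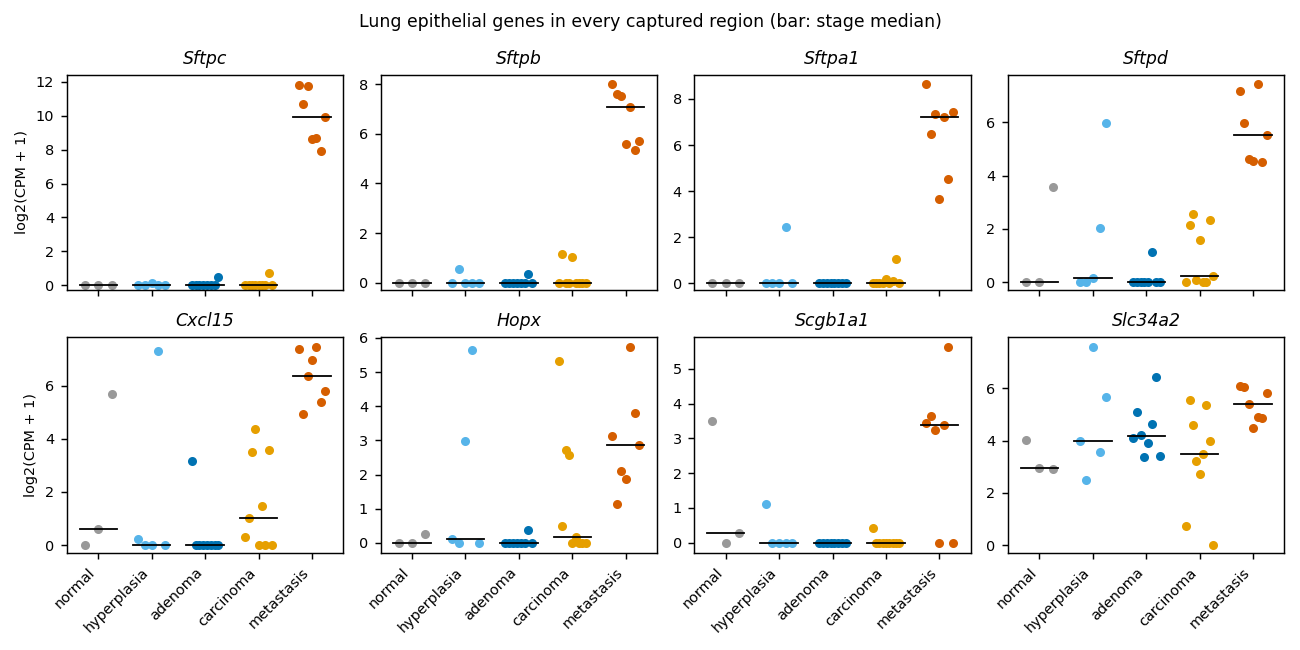
Level of 8 lung epithelial genes, as log2 of CPM plus 1, in each captured region by stage (3 normal, 5 hyperplasia, 8 adenoma, 9 carcinoma and 7 metastasis libraries), 1 point per library with a bar at the stage median. Sftpc, Sftpb and Sftpa1 stand above all other stages in the 7 metastases, while the levels of Slc34a2 overlap among all stages.

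The surfactant genes were close to absent from the rest of the series as well. Of the 17 libraries outside the comparison, 2 held a Sftpc count, with a highest level of 0.636 CPM in a carcinoma. For Sftpb it was 3 libraries, with a highest level of 1.27 CPM, and for Sftpa1 4 libraries, with 4.40 CPM in hyperplasia 33. Sftpd had counts in 10 of them and reached 62.2 CPM in hyperplasia 46, which lies within the metastasis range. Between lung positions, Sftpc was 246 to 3461 CPM in the 4 border metastases and 414 to 3687 CPM in the 3 central ones, so the positions overlapped. The 3 surfactant genes passed the test with border metastases alone and with central metastases alone. Among red regions of both stages alone, only Sftpc passed (adjusted p = 0.171 for Sftpb and 0.224 for Sftpa1, edgeR).

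The list of 13 type 2 cell genes divided in its members. Of these, 3 passed and were higher (0.0151% of all genes did), none passed and was lower, and 9 were higher at an unadjusted p under 0.05 (8.50% of all genes were). The median fitted change was 6.50 against 0 for all genes. It was 6.50 too with the 2 members absent from all adenomas set at the bound that 3 counts in the group allow. In 6 of the 13 every metastasis lay above every adenoma, where 0.0703% of all tested genes (14) did so. List members were chosen with earlier results of these data known and include the 3 genes that passed. No excess over all genes is therefore read from these counts. Cxcl15, a chemokine gene of lung epithelium, was 29.5 to 173 CPM in metastases and 0 in all adenomas except adenoma 24 (7.97 CPM), with an edgeR adjusted p of 0.129. Outside the comparison Cxcl15 reached 156 CPM in hyperplasia 33, inside the metastasis range. Napsa, the gene of an aspartic protease that processes SP-B, was the sixth gene without overlap, with means of 11.9 and 0.116 CPM (adjusted p = 0.129, edgeR). It is named after its values were seen. Napsa reached 32.7 CPM in normal 18, above its highest metastasis level of 26.2 CPM.

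Other members of the same list had closer means. Abca3, which loads lipid into the storage bodies of type 2 cells, had means of 84.0 CPM in metastases and 91.7 CPM in adenomas. Slc34a2, a phosphate transporter, had 43.6 and 26.3 CPM, and Etv5, a transcription factor gene, 90.6 and 137 CPM. These genes were thus measured in primary lesions too, and none of these 3 passed the test. The summed level of the list was 550 to 5225 CPM in metastases, 198 to 355 CPM in adenomas, 166 to 501 CPM in carcinomas and 156 to 750.0 CPM in hyperplasias. The metastasis sums lay above all adenoma and carcinoma sums and overlapped those of hyperplasia.

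Genes of the other lung epithelia were less uniform. Scgb1a1, the club cell marker, was found in 5 of 7 metastases at up to 48.5 CPM and in no adenoma (edgeR adjusted p = 0.106). Its metastasis mean was 12.6 CPM, or 6.57 CPM without metastasis 58. Cbr2, a carbonyl reductase gene of club cells, was 65.8 to 405 CPM against 0 to 65.7 CPM, touching but not overlapping (adjusted p = 0.131). Cbr2 also reached 90.0 CPM in carcinoma 8, inside the metastasis range. Of the 8 airway genes tested, none passed, and their sum overlapped between metastases (79.6 to 447 CPM) and adenomas (0.856 to 158 CPM).

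Among 12 type 1 cell genes none passed, and the median change was -0.67, or 1.02 by limma with voom. Hopx, a homeodomain protein gene used as a type 1 marker, was 1.20 to 52.1 CPM in metastases with 1 count in all adenomas, a pooled ratio of 744 (95% counting interval 133 to 29440), and its edgeR adjusted p was 0.129. The metastasis mean of Hopx was 12.3 CPM, or 5.66 CPM without metastasis 42. Outside the comparison Hopx reached 49.2 CPM in hyperplasia 33, inside the metastasis range. Ager, which encodes the receptor RAGE on type 1 cells, was 1.19 to 74.8 CPM against 0 to 6.67 CPM, so its ranges overlapped (adjusted p = 0.183). Aqp5, a water channel gene on the same list, had the opposite direction, with a mean of 469 CPM in metastases and 883 CPM in adenomas (adjusted p = 0.217).

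In captured bulk tissue, a region with fewer cells of a type and a region with less RNA per cell cannot be told apart, and lung cells cut along with a metastasis cannot be told apart from lung genes read in the tumour cells. Whether the surfactant levels came from neighbouring cells was not tested.

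Neutrophil genes included a pair with large differences. S100a8 and S100a9, which encode the subunits of calprotectin, a protein abundant in neutrophils, were 44.5 to 554 and 46.7 to 335 CPM in metastases, against 0 to 77.9 and 0 to 23.1 CPM in adenomas. S100a9 did not overlap between the groups and S100a8 did. Neither passed the main test (log2 change 3.96, SE 1.06, and 5.16, SE 1.50, edgeR adjusted p = 0.129 for each). S100a8 passed by limma with voom (adjusted p = 0.0283) and by DESeq2 (0.0126). S100a9 passed by limma with voom (1.84e-05) and without adenoma 34 (0.0457, edgeR).

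Of the 14 neutrophil genes tested, 6 were higher at an unadjusted p under 0.05, where 8.50% of all genes were, and none passed. A higher fitted level was found for 13 of them, where 49.9% of all genes had one. The list's median change was 1.92. Its lineage genes differed among themselves: Ly6g had means of 0.639 CPM in metastases and 0.222 CPM in adenomas and Mpo, myeloperoxidase, 0.994 and 2.58 CPM. Retnlg had 13.0 and 0.407 CPM, Ngp, a granule protein gene, 5.63 and 0.276 CPM, and Csf3r, the G-CSF receptor gene, 15.5 and 3.02 CPM, with metastasis SDs of 28.7, 10.5 and 24.9 CPM, and none passed. Mmp9, a matrix protease gene of neutrophils, had 210 counts in metastases and none in adenomas, of which most were in metastasis 40, and its mean without that library was 0.811 CPM. The list's summed level, 4389 to 8299.7 CPM in metastases and 2206 to 5931 CPM in adenomas, was carried by Lcn2 and Ltf, which mammary epithelium also expresses.

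**Figure D3:**
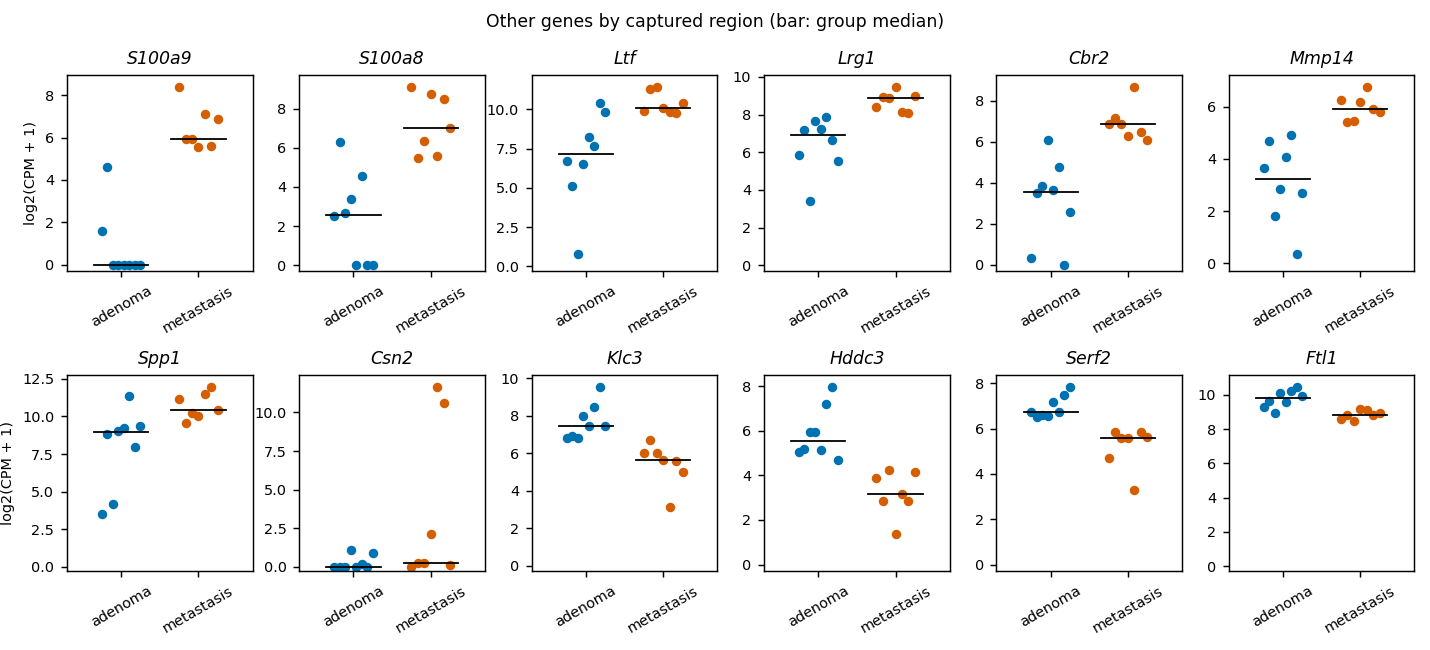
Level of further genes as log2 of CPM plus 1 in the 8 adenoma and 7 metastasis libraries, 1 point per library with a bar at the group median. S100a9, Lrg1 and Mmp14 lie higher, and Klc3 and Hddc3 lower, in every metastasis than in every adenoma, without passing the test over all genes.

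The secreted protein gene Lrg1 and the matrix protease gene Mmp14 divided the groups without overlap. Lrg1, a glycoprotein gene that modulates TGF-beta signalling in vessels and is made in acute-phase responses, was 272, 466 and 705 CPM (lowest, median and highest) in metastases and 9.65, 123 and 236 CPM in adenomas. All metastases exceeded all adenomas. The fitted change was 1.88 (SE 0.51, edgeR adjusted p = 0.129). Carcinomas lay between and across both groups, from 76.3 to 385 CPM.

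Mmp14 encodes a membrane-bound collagenase that also activates pro-MMP2. It was 41.5, 59.8 and 108 CPM in metastases and 0.285, 8.86 and 29.1 CPM in adenomas, without overlap (log2 change 2.43, SE 0.68, edgeR adjusted p = 0.129). Carcinomas spanned 16.7 to 133 CPM with a median of 80.4, so the metastasis range fell inside that of the primary carcinomas. Mmp2 itself had means of 4.34 CPM in metastases (2.47 without metastasis 56) and 18.6 CPM in adenomas (11.5 without adenoma 50), with an adjusted p of 0.400.

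Nadsyn1, the last enzyme of one route of NAD synthesis, was 3.12 to 33.6 CPM against 0 to 2.28 CPM, and also did not overlap (edgeR adjusted p = 0.172). Besides these and the lung genes, Fhl1 and Gm15910 made up the 14 genes whose metastasis libraries all lay above the adenomas, and they are named after their values were seen.

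Ltf, the gene of the iron-binding milk and neutrophil protein lactoferrin, was 867 to 2736 CPM in metastases and 0.762 to 1369 CPM in adenomas. Adenomas 51 and 36 reached the metastasis range, and the other 6 were at 302 CPM or less (edgeR adjusted p = 0.143). Spp1, the secreted phosphoprotein osteopontin, was 758 to 3903 CPM against 10.6 to 2622 CPM, with adenoma 48 inside the metastasis range (log2 change 1.60, SE 0.73, adjusted p = 0.283). Of the 26 genes tested on a list of metastatic colonisation genes, which includes Spp1, none passed, 3 were higher and 4 lower at an unadjusted p under 0.05 (8.50% and 6.28% of all genes were), and the median change was 0.13, or -0.33 with the 2 members absent from a whole group set at their bounds. Tnc, the matrix protein tenascin C, had means of 34.1 and 6.24 CPM (adjusted p = 0.230). Ereg, the growth factor epiregulin, had 0.0726 and 24.3 CPM, but adenoma 50 held most of it and the adenoma mean was 1.04 CPM without that library.

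Lower genes that did not overlap numbered 4 of the tested genes (0.0201%). The 15 libraries can be split in 6435 ways, so a few of 19907 genes could divide fully in each direction with no difference between the stages. Klc3, a kinesin light chain gene, was 7.84, 49.6 and 105 CPM in metastases and 110.3, 175 and 736 CPM in adenomas (log2 change -2.27, SE 0.50, edgeR adjusted p = 0.0704). Every metastasis lay below every adenoma, and carcinomas, at 63.0 to 328 CPM, overlapped both. Klc3 overlaps Ercc2, a DNA repair helicase gene with means of 64.04 and 237 CPM, and reads of these neighbours could not be separated, since the sources used here do not state strand.

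Hddc3, which encodes an HD-domain hydrolase, was 1.55, 7.84 and 17.7 CPM against 24.7, 47.3 and 245 CPM (log2 change -3.00, SE 0.69, edgeR adjusted p = 0.0964). The adenoma means of both genes were raised by adenoma 51, and without it they were 185 CPM for Klc3 and 55.9 CPM for Hddc3. Serf2, a small protein gene linked to aggregation of amyloid proteins, was 8.92 to 57.5 CPM against 91.2 to 226 CPM (adjusted p = 0.129), and it overlaps Serinc4. The fourth, the small nuclear RNA gene Rnu11, held 4 counts in all metastases and 233 in adenomas.

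Epithelial genes gave no call, though no test of equivalence was made. Of 20 luminal keratin and junction genes none passed, and the median change was -0.15. Krt8 had means of 592 ± 108 and 856 ± 285 CPM (edgeR adjusted p = 0.385), and Cdh1, E-cadherin, 184 ± 37.3 and 185 ± 90.5 CPM (adjusted p = 0.998). Epcam, an epithelial adhesion gene, had 390.3 and 513 CPM. Basal keratins were low and overlapped, with Krt14 means of 31.7 and 21.9 CPM (10.9 in adenomas without adenoma 50). The 17 tested regulators of the mesenchymal transition gave no call and a median change of 0.18, and the mean of Vim, vimentin, was 27.9 CPM in metastases and 13.4 CPM in adenomas (adjusted p = 0.603).

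Milk genes were also read in lung metastases. Csn3, kappa-casein, was 3784 to 14029 CPM in metastases and 3607 to 13816 CPM in adenomas, and Lalba, the lactose synthase subunit alpha-lactalbumin, was 1069.8 to 3616 against 667 to 8961 CPM. Both genes were detected in every library and neither passed (edgeR adjusted p = 0.854 and 0.184). Csn2, beta-casein, was near 0 in both groups except for metastasis 42 (3158 CPM) and metastasis 58 (1565 CPM), and the highest adenoma held 1.13 CPM. Its fitted change of 11.25 (SE 2.36, adjusted p = 0.0638) thus came from 2 of 7 libraries. Of the 16 milk and fat globule genes, 5 were higher and 1 lower at an unadjusted p under 0.05 (8.50% and 6.28% of all genes were), and the median change was 1.09. Plin2, which coats lipid droplets, was 86.7 to 392 CPM against 59.1 to 141 CPM (adjusted p = 0.230).

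Steroid receptor genes overlapped between the groups. Esr1, the oestrogen receptor alpha gene, had means of 55.9 and 56.4 CPM, but the adenoma mean was 22.2 CPM without adenoma 50. Its medians were 36.1 CPM in metastases and 15.9 CPM in adenomas, and its ranges overlapped. Pgr, the progesterone receptor gene, had medians of 0 in both. Of the 11 hormone-sensing genes tested none passed, and the median change was 2.34, or -0.25 when only the 15 compared libraries were fitted, which left 4 of these genes to test. Several members had few counts: Cited1, a transcriptional coactivator, had 327 counts in metastases and 5 in adenomas, and Areg, the growth factor amphiregulin, 153 and 5.

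**Figure D4:**
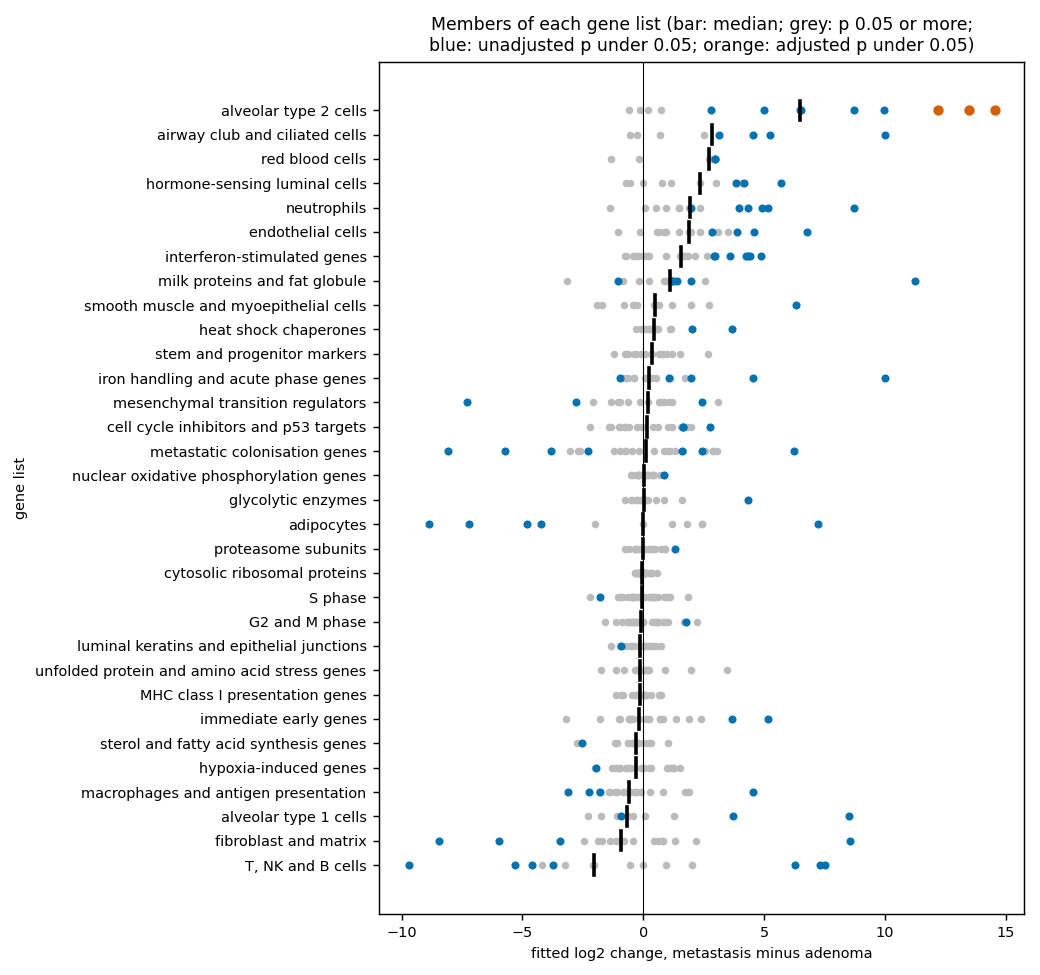
Fitted log2 change of metastasis minus adenoma (horizontal axis) for the tested members of each gene list (vertical axis), 1 point per gene with a bar at the list's median. Orange points, the genes past an adjusted p of 0.05, occur in the type 2 cell list only, whose median of 6.50 lies farthest from 0.

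Proliferation genes showed no call in either direction. None of 30 S phase genes and none of 36 genes of G2 and M phase passed, with median changes of -0.05 and -0.09. Mki67, the proliferation antigen gene, was 28.1 to 245 CPM in metastases and 22.8 to 278 CPM in adenomas, and Top2a, topoisomerase II alpha, 79.4 to 331 and 8.56 to 233 CPM. The ranges overlapped for both genes (edgeR adjusted p = 0.756 and 0.716). Their log2 changes were -0.41 and 0.47, each with an SE of 0.47, so changes of that size could not be told from the spread between regions.

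Housekeeping and metabolic lists had medians near 0 on the log2 scale. The median change was -0.05 over 40 cytosolic ribosomal protein genes, 0.04 over 25 nuclear genes of oxidative phosphorylation, -0.01 over 23 proteasome subunits, 0.01 over 20 glycolytic enzymes, -0.15 over 20 stress genes of the unfolded protein response and -0.30 over 21 sterol and fatty acid synthesis genes. None of their members passed. Ldha, lactate dehydrogenase A, was 593 to 991 CPM in metastases and 851 to 1331 CPM in adenomas (edgeR adjusted p = 0.439), and Egln3, a prolyl hydroxylase induced by hypoxia, had means of 33.1 and 129 CPM (adjusted p = 0.156). The 22 hypoxia genes gave a median of -0.30. Heat shock genes had a median of 0.46 over 16 genes with 14 fitted higher (49.9% of all genes were), and none passed. The inducible Hsp70 genes Hspa1a and Hspa1b, near-identical copies whose reads may be split, were 0 to 126 against 0 to 14.9 CPM and 12.7 to 268 against 0.254 to 90.6 CPM (adjusted p = 0.199 and 0.222).

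Ifit3, an interferon-stimulated antiviral effector gene, was high in a pair of metastases. It was 561 CPM in metastasis 42 and 146 CPM in metastasis 58, while the other 5 metastases were at 2.20 CPM or less and the adenomas reached 26.1 CPM in adenoma 24. Metastases 42 and 58 were also the libraries with high Csn2. Of 26 interferon genes, 7 were higher at an unadjusted p under 0.05 (8.50% of all genes were) and none passed. A higher fitted level was found for 20 of them (49.9% of all genes had one), and the list's median change was 1.57. The summed list was 4674 CPM in metastasis 42, 3994 in metastasis 58 and 4174 in adenoma 36, and at most 963 CPM in the other 12 libraries, so both groups held regions with high levels.

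Endothelial genes had higher fitted levels in metastases in 15 of 17 cases (49.9% of all genes did), with a median change of 1.90 and no call. At an unadjusted p under 0.05, 4 were higher and 0 lower (8.50% and 6.28% of all genes were). Kdr, the VEGF receptor 2 gene, had a median of 7.20 CPM in metastases and 0.143 in adenomas (edgeR adjusted p = 0.257), and Tmem100, a gene of lung capillary endothelium, had 349 counts in metastases and 4 in adenomas (adjusted p = 0.129). Pecam1, CD31, was 4.01 to 17.1 CPM against 0 to 20.3 CPM, with adenoma 25 above all metastases. The summed endothelial level was 121 to 369 CPM in metastases and 17.4 to 238 CPM in adenomas.

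Haemoglobin genes were found in every metastasis. Hbb-bs, a beta-globin gene, was 42.5, 241 and 5252 CPM in metastases and 0, 11.1 and 1065 CPM in adenomas. All adenomas were under 42.5 CPM, the lowest metastasis, except adenoma 36. The test was not passed (edgeR adjusted p = 0.312), and reads of Hbb-bs and Hbb-bt, or of Hba-a1 and Hba-a2, may be split between near-identical copies. The summed red blood cell list ran from 106 to 18867 CPM in metastases and from 0 to 4511 CPM in adenomas.

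**Figure D5:**
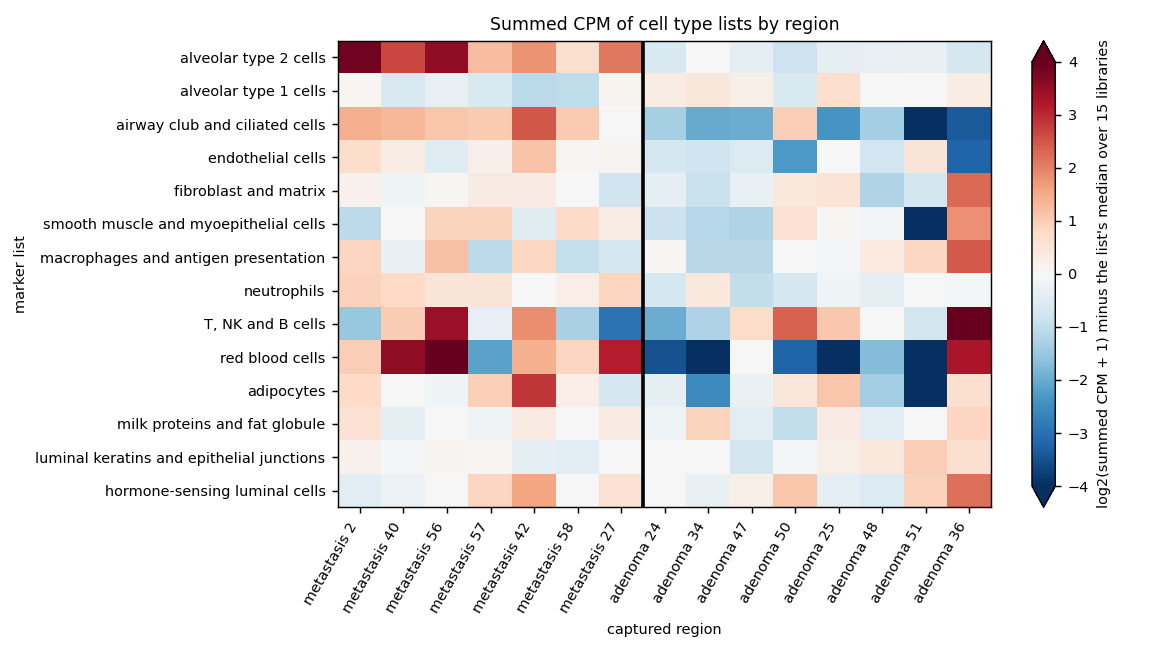
Summed CPM of cell type marker lists (rows) in each metastasis and adenoma region (columns), coloured by log2 of the sum plus 1 minus the list's median over the 15 libraries. The type 2 cell list, at 550 to 5225 CPM in metastases and 198 to 355 CPM in adenomas, divides the groups, and adenoma 36 stands out in the fibroblast and lymphocyte lists.

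Several stromal and leukocyte genes were lower in the metastasis means, and adenoma 36 held most of the adenoma level of some of them. Lum and Dcn, the matrix proteoglycans lumican and decorin, had adenoma means of 15.9 and 54.2 CPM, which became 1.94 and 4.74 CPM without adenoma 36. In metastases Lum had 3 counts in all and Dcn a mean of 0.822 CPM, and neither gene passed (edgeR adjusted p = 0.106 and 0.120). Col1a1, a fibrillar collagen gene, was 1.86 to 50.01 CPM against 1.77 to 165 CPM. Over 20 fibroblast genes the median change was -0.91, or 1.26 with red regions alone, with sums of 248 to 549 CPM in metastases and 187 to 2052 CPM in adenomas, the highest in adenoma 36. Of the 20, 8 had a higher and 12 a lower fitted level. At an unadjusted p under 0.05, 3 were lower and 1 higher (6.28% and 8.50% of all genes were). The higher one was Fbln1, with means of 4.63 CPM in metastases, most of it in metastasis 40 (26.3 CPM), and 0 in adenomas.

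Of 11 adipocyte genes tested none passed, 5 had a higher and 6 a lower fitted level, and the median change was -0.01, or -0.31 with the 4 tested members absent from a whole group set at their bounds. At an unadjusted p under 0.05, 4 were lower (Fabp4, Adipoq, Lep and Plin1) and 1 higher (Plin4), where 6.28% and 8.50% of all genes were. Lep and Plin1 had no count in any metastasis and adenoma means of 5.73 and 0.215 CPM, with most of Lep in adenoma 50. Fabp4, a fatty acid carrier of adipocytes and capillaries, had 6 counts in metastases and a mean of 11.6 CPM in adenomas (4.54 without adenoma 25). The defining adipocyte gene Adipoq had no count in any metastasis and a mean of 0.332 CPM in adenomas (0.120 without adenoma 24). Neither passed (edgeR adjusted p = 0.106 and 0.221). Plin4, a lipid droplet protein gene, went the other way, with means of 49.6 and 0.294 CPM (adjusted p = 0.106), but metastasis 42 held most of it and the metastasis mean without that library was 0.801 CPM. Cd36, a fatty acid transporter gene, had means of 30.7 and 5.77 CPM.

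Ptprc, the pan-leukocyte gene CD45, was at most 28.6 CPM in metastases and reached 605 CPM in adenoma 36, without which the adenoma mean was 38.9 CPM (edgeR adjusted p = 0.129). Jchain, which joins secreted immunoglobulin units in plasma cells, went the other way, with 391 CPM in metastasis 56 and at most 1.90 CPM in any adenoma, and the metastasis mean without that library was 14.7 CPM. Both are on the lymphocyte list of T, NK and B cell genes, of which 15 were tested and none passed. The list's median change was -2.04. At an unadjusted p under 0.05, 3 were higher and 4 lower (8.50% and 6.28% of all genes were). Among the lower ones, Nkg7 had no count in metastases and lay mostly in adenoma 36 (82.7 CPM). Among 22 macrophage and antigen presentation genes 16 had a lower and 6 a higher fitted level (49.9% of all genes had a higher one). Their median was -0.59 (0.34 by limma with voom), with no call. At an unadjusted p under 0.05, 3 were lower and 1 higher (6.28% and 8.50% of all genes were). Mpeg1, Csf1r and C1qb had means of 7.34, 9.58 and 12.8 CPM in metastases and 63.4, 45.9 and 43.8 CPM in adenomas. Adenoma 51 held most of the adenoma level of Mpeg1 (386 CPM), while Csf1r and C1qb were spread over several adenomas. Ear2 went the other way, with 15.8 and 0.667 CPM. C1qa, a complement gene of tissue macrophages, was 2.65 to 31.2 CPM against 0.285 to 57.8 CPM. Whether these cells had a part in the differences of Lrg1, Mmp14, S100a8 or S100a9 was not tested.

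Many of the genes with a small unadjusted p rested on 1 library. Of the 1692 higher ones, 1407 (83.2%) had over 50% of their summed metastasis CPM in a single library, most often metastasis 40 or 42, while 48.5% of all genes detected in metastases did. Of the 1250 lower ones, 967 (77.4%) had over 50% of their adenoma sum in 1 library, most often adenoma 51 or 47, while 48.5% of all genes detected in adenomas did. Metastasis 40 and adenoma 47 were also the most frequent such libraries over all genes detected in their groups. Sash1, Dclk1, Mier3 and Chp1 rested on 1 library in this way. Their metastasis means of 108, 146, 133 and 154 CPM became 29.6, 20.3, 28.5 and 39.4 CPM without metastasis 42. Among lower genes, Mfsd4a, Zfp157 and Tspan1 had adenoma means of 116, 75.6 and 157 CPM, which became 37.2, 37.0 and 95.7 CPM without adenoma 51. Npnt, the matrix protein nephronectin, depended less on it, with 6.21 to 130.1 CPM in metastases and 72.4 to 488 CPM in adenomas (edgeR adjusted p = 0.129).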

How the data were processed

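Laser-captured regions were measured as a table of whole-number counts per gene identifier, deposited by the authors with 1 column per library. Reads were aligned with STAR to mm10, per the submitters' processing notes. Gene assignment, annotation and strand setting were not given in the sources used here. Reads carried no molecular identifiers, so intervals and count floors cover counting error only. Of 24454 identifiers, 24374 were matched to a symbol in the RefSeq table of GRCm38.p6.

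Genes were filtered with filterByExpr and scaled by TMM in edgeR 4.0.16 (R 4.3.3), and 19907 entered a quasi-likelihood model with stage as its term over all 32 libraries. Metastasis minus adenoma was tested with Benjamini-Hochberg adjustment over all 19907 genes at 0.05. Standard errors are the log2 change divided by the square root of F. The code was tested on simulated data. Alternatives were DESeq2 1.42.0 (Wald test, and its size factors), limma 3.58.1 with voom and sample weights, no count filter, other sets of libraries, a detected-gene covariate, and leaving out each library.

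Gene lists (32, with 625 of 630 entries matched) and members were chosen with earlier results of these data known. The genes given are those that passed with a mean of at least 20 CPM and 10 counts in 75% of libraries of the higher group, filled to 10 in each direction by smallest p. To these were added up to 10 of highest mean in each direction whose groups did not overlap, up to 4 of smallest p in each list, a fixed set of marker genes and the 10 most abundant of all these. Members outside this rule are given by their group means.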

Additional observations from a re-analysis of the deposited data

Results flagged for a closer look

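In the 182 genes chosen for description and in 2 library measures, the highest and lowest library of each group was compared with the rest of its group by Dixon's criterion, on the log2(CPM + 1) scale for genes. Of 368 groups, 64 held a library that stood apart. The limits used give about 1 in 20 groups by chance only where values are normally distributed. Many of the flagged groups had no count in most libraries, and there a few counts in 1 library are enough to stand apart. The number of flagged groups therefore cannot be set against that rate, and no excess is read from it. The values below are in CPM, each beside the median of its group.

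Adenoma 24 stood high for Chac1 (8.24, median 0), Cxcl15 (7.97, median 0), Des (0.544, median 0), Id1 (9.87, median 0), Ifit3 (26.1, median 0), Jchain (1.90, median 0) and Slc16a3 (6.70, median 0.0601). Adenoma 25 stood high for Fosl1 (0.0601, median 0), Foxc2 (14.5, median 0), Pecam1 (20.3, median 0.508) and Twist1 (0.541, median 0). Adenoma 34 stood high for Ccl2 (0.289, median 0), Hp (4.34, median 0) and S100a9 (23.1, median 0). Adenoma 36 stood high for Areg (0.424, median 0), Cnn1 (70.1, median 0), Dclk1 (24.3, median 0.571), Nkg7 (82.7, median 0), Sftpc (0.424, median 0) and Tmem100 (0.318, median 0). Adenoma 47 stood high for Idi1 (105, median 0.346). In adenoma 47 the low values were those of Krt18 (263, median 571). Adenoma 48 stood high for Sftpd (1.22, median 0). Adenoma 50 stood high for Cited1 (0.453, median 0), Ereg (187, median 0.381), Fn1 (58.04, median 5.03), Mmp10 (5.20, median 0) and Pgr (1.47, median 0). In adenoma 50 the low values were those of Aqp5 (346, median 874). Adenoma 51 stood high for Chil3 (215, median 0.240), Egln3 (431, median 85.7), Hopx (0.285, median 0), Psmd2 (398, median 76.8) and Sftpb (0.285, median 0). In adenoma 51 the low values were those of Itgb4 (1.998, median 51.6), Mki67 (22.8, median 146), Psmc4 (4.28, median 32.5) and Sdf2l1 (0, median 38.6).

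Metastasis 2 stood high for Fabp4 (0.265, median 0) and Lum (0.159, median 0). Metastasis 40 stood high for Cd79b (12.2, median 0), Cnn1 (15.4, median 0), Mmp9 (31.5, median 0.508) and Slc16a3 (131, median 0). Metastasis 42 stood high for Cbr2 (405, median 115), Plin4 (342, median 0.730) and Psmc4 (559, median 49.9). In metastasis 42 the low values were those of Cox4i1 (470.4, median 1112), Erbb2 (3.51, median 59.2), Fen1 (0.270, median 21.5), Npnt (6.21, median 69.9) and Psmb2 (4.05, median 124). Metastasis 57 stood high for Des (47.6, median 0), Rnu11 (0.366, median 0) and Rps24 (1996, median 1407). In metastasis 57 the low values were those of Col3a1 (3.20, median 19.2), Csf1 (0, median 6.81) and Egr1 (5.67, median 89.7). Metastasis 58 stood high for Csgalnact1 (4.27, median 0.182), Ereg (0.508, median 0), Fosl1 (5.29, median 0), Idi1 (14.6, median 0) and Scgb3a2 (3.15, median 0). In metastasis 58 the low values were those of Malat1 (404, median 13265). Metastasis 42 and adenoma 51 were also the libraries with the fewest detected genes of their groups. The surfactant gene that an adenoma held differed between adenomas: Sftpc in 36, Sftpb in 51 and Sftpd in 48.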

How the results depend on the processing

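The count of 3 calls became 14 without a count filter (12 higher, 2 lower), 395 by DESeq2's Wald test, 20 by limma with voom, 30 with central metastases alone (all higher) and 1 with red regions alone, where 5 metastases and 4 adenomas were left. Leaving out each library in turn gave 3 to 8 calls. DESeq2's size factors, the detected-gene covariate, and fits without the 3 libraries of fewest genes, without the identifier of highest share or with border metastases alone each gave 3. The cause of the larger counts was not tested. Sftpc, Sftpb and Sftpa1 passed in all 15 fits that left out a library, with log2 changes of 14.16 to 16.95, 11.86 to 13.39 and 12.94 to 13.69, and Sftpc passed in the other 12 alternatives too. The difference in detected genes was 932, and 456 to 1645 when each library was left out, with no p under 0.05. By limma with voom (median over all genes 0.19), the list medians of type 1 cell, macrophage and lymphocyte genes were 1.02, 0.34 and 0.09, with the sign reversed. The fibroblast median was 1.26 with red regions alone. No called value changed its sign. Some genes described above as not passing were called in alternatives. By limma with voom these included Cxcl15 (adjusted p = 1.84e-05), Hopx (0.00225) and Ltf (0.00259). Csn2 (0.0290) and Klc3 (0.0476) passed without a count filter (edgeR), and Klc3 also without metastasis 40 (0.0386). No paired analysis was possible because region numbers do not recur between the stages. A group of 7 or 8 regions with a common dispersion of 2.64 limits what can be called among genes with few counts.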

Other observations

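Csn2 and Ifit3 were high in the same metastases: 3158 CPM of Csn2 and 561 CPM of Ifit3 in metastasis 42, and 1565 and 146 CPM in metastasis 58. In metastasis 57 the levels were 3.29 CPM and 0. Ifit2, another interferon gene, was 0.540 CPM in metastasis 42 and 128 CPM in metastasis 58. Adenoma 36, with a summed interferon list of 4174 CPM, held 0.847 CPM of Csn2. Wfdc18, a secreted protease-inhibitor-like gene abundant in mammary epithelium, was 1490.4 to 18896 CPM in metastases and 1087 to 11231 CPM in adenomas, with medians of 9568 and 2755 CPM (edgeR adjusted p = 0.195). Ftl1, the ferritin light chain gene, was 351 to 586 CPM against 479.9 to 1380.0 CPM (adjusted p = 0.129).

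Ccn2, a matrix-associated growth factor gene, had means of 31.7 and 2.45 CPM, with every metastasis at or above 3.93 CPM and every adenoma at or below 7.96 CPM (edgeR adjusted p = 0.129). Saa3, an acute-phase gene, had 1477 counts in metastases and none in adenomas, but its metastasis mean of 12.6 CPM was 3.05 CPM without metastasis 2. Ccng1, a p53 target, was 57.8 to 233 CPM in metastases and 1.78 to 77.5 CPM in adenomas (adjusted p = 0.204). Rpl38, a ribosomal protein gene, was 367 to 474 against 220.0 to 398 CPM (adjusted p = 0.369).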
